A study of Mus musculus with 16 samples.

Results

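The nuclear genes of oxidative phosphorylation were examined for RNA crosslinked to PGC-1α in mouse primary hepatocytes. Members were the protein-coding genes of GENCODE M21 whose symbol starts with Ndufa, Ndufb, Ndufc, Ndufs, Ndufv, Sdha to Sdhd, Uqcr, Cyc1, Cox4 to Cox8 or Atp5, without the Ndufaf assembly factors, and that held at least 1 cluster in any library. A cluster is a stretch of piled-up reads that the authors scored with a p-value and a fold over input. Of 90 annotated genes with such symbols, 83 held a cluster, among 10916 protein-coding genes with a cluster in the series. By symbol, 38 belonged to complex I, 4 to complex II, 9 to complex III, 11 to complex IV and 17 to complex V, and the prefix Sdha also took 4 assembly factors of complex II (Sdhaf1 to Sdhaf4), which are counted apart. Ndufa4 is kept with complex I by its symbol, although its protein is known as a subunit of complex IV, and Cox7a2l, kept with complex IV, is known as a factor that joins complexes III and IV.

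Complexes I to IV of the inner mitochondrial membrane pass electrons from NADH and succinate to oxygen, complexes I, III and IV pump protons, and complex V, the ATP synthase, uses the proton gradient to make ATP. PGC-1α is a coactivator that raises transcription of these genes through factors such as ERRα and NRF1, and it also carries motifs that bind RNA. In the fasted liver, glucagon signalling induces PGC-1α, and the ATP made by these complexes is spent on gluconeogenesis.

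Hepatocytes came from C57BL/6J livers and were cultured on dishes. Control cells were untreated, glucagon cells had glucagon at 200 nM during the last 3 h, following an overnight culture in starvation medium. All dishes were irradiated with 254 nm ultraviolet light (400 mJ/cm2) to link RNA to protein. The method was seCLIP, in which RNA fragments linked to the precipitated protein are sequenced and set against an input sample. From each treatment a lower and an upper band was taken, each with 2 replicates, which gives 8 libraries from PGC-1α immunoprecipitation in 4 groups. A further 8 inputs are listed, and their reads were not analysed here. The labels do not say which molecular weights the bands hold, nor whether replicates came from separate cultures or mice. All p-values below therefore measure the spread between these libraries only, which may be technical.

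The libraries held 26279 to 260814 clusters, with the smallest number in glucagon lower band replicate 1 and the next smallest, 97629, in glucagon upper band replicate 1. Read depth is unknown, since the files hold no read counts. All 10 hepatocyte marker genes examined had clusters, 4338 in all, 381 to 747 in each library. Markers of other liver cells gave 5 clusters for Kupffer cells (1 of 7 genes), 1 for endothelial cells (1 of 5), 6 for stellate cells (1 of 5), 23 for bile duct cells (2 of 5) and 0 for erythroid cells (0 of 5).

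The 7 genes without a cluster in any library were Cox4i2, Cox6a2, Cox6b2, Cox7a1, Cox7b2, Cox8b and Cox8c, all isoforms of complex IV subunits that are known from muscle, lung or testis. Their counterparts of wide expression had clusters: Cox4i1 had 96, Cox6b1 had 76, Cox6a1 had 48, Cox7a2 had 45, Cox7b had 40 and Cox8a had 29. At the low end among members with a cluster stood Sdhaf1 with 1 cluster in 1 library, Atp5s, a coupling factor, with 2 clusters in 2 libraries, Sdhaf4 with 5 clusters in 4 libraries, and Ndufs8, an iron-sulfur subunit of complex I, with 7 clusters in 4 libraries. The numbers of members with a cluster were 76 and 80 in control lower band replicates 1 and 2, 80 and 79 in control upper band, 53 and 81 in glucagon lower band, and 74 and 81 in glucagon upper band. Only the library with fewest clusters fell below 74, and 51 members had a cluster in all 8 libraries. A total of 4471 clusters was given to members. A further 29 clusters with their midpoint in a member were given to another gene there, mostly to short noncoding RNA genes inside introns, and are not counted.

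Most of these clusters lay on the mature mRNA. Coding sequence held 51.9% ± 11.0 of a library's member clusters (mean and SD over 8 libraries), against 20.1% ± 8.61 for all protein-coding genes. Introns held 32.4% ± 12.7 of the member clusters and 68.1% ± 11.2 of all. The difference lay in introns more than 500 nt from an exon, with 15.8% against 52.1%. Introns within 500 nt of an exon had like shares, 16.6% and 15.9%. Untranslated regions held 8.80% (3′) and 5.87% (5′) of member clusters, against 8.12% and 3.13%. Members are short genes. Their median length was 7674 nt with 4 exons and an mRNA of 908 nt, against 25540 nt, 9 exons and 3008 nt over protein-coding genes with a cluster. Per kb of mRNA the members held 27.9 exonic clusters, pooled over libraries, and all genes 9.20. Per kb of intron the values were 1.83 and 1.59.

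The intronic share of member clusters was 21.1% and 31.5% in control lower band replicates 1 and 2, 43.3% and 48.7% in control upper band, 9.80% and 31.1% in glucagon lower band, and 31.5% and 42.3% in glucagon upper band. In both treatments each upper band library lay above the lower band library of the same replicate number, and all protein-coding genes had the same order, from 44.3% to 80.3%. The 3 libraries with most clusters also had the 3 highest intronic shares of member clusters, and the part of cluster number in the band difference was not tested.

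**Figure D1:**
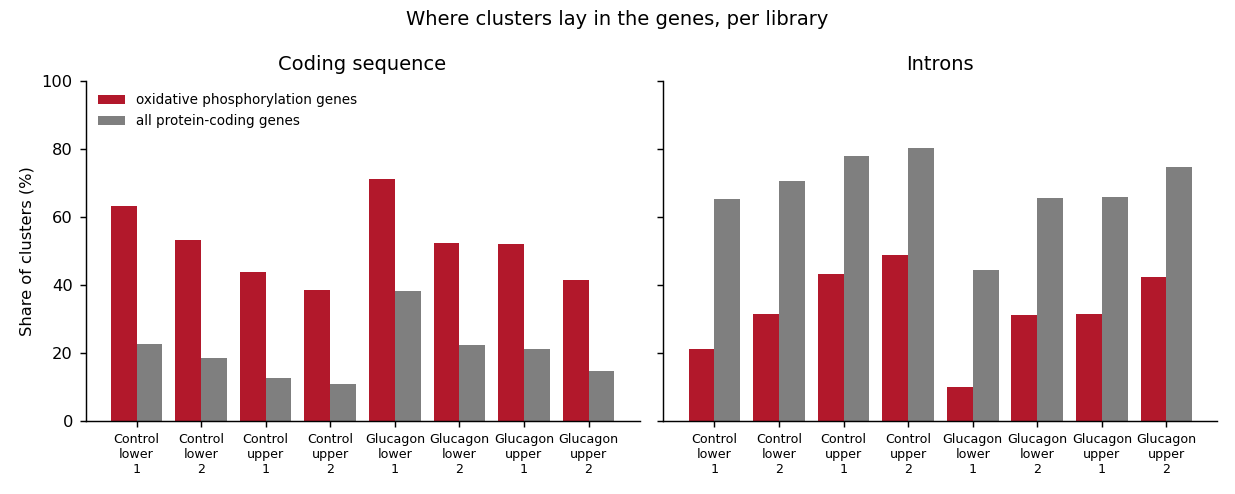
Share of clusters in coding sequence (left) and in introns (right) in each of the 8 libraries, for oxidative phosphorylation genes (red) and all protein-coding genes (grey); bars start at 0. In every library the red bar is higher for coding sequence and lower for introns, from 9.80% to 48.7% against 44.3% to 80.3%.

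Coding clusters of the members were centred near the level of input. Their median log2 fold over input, the authors' value, was −0.04, and 47.7% of them lay above 0. Coding clusters of all protein-coding genes were alike, with −0.09 and 46.4%. For clusters in the 3′ UTR the median was −0.42, against 0.26 over all protein-coding genes, and the members' median was the lower of the pair in 8 of 8 libraries. In 5′ UTRs the members' median was 0.72, against 0.91 over all genes. Introns near exons had 1.50 and deeper introns 1.31, close to the 1.46 of each over all genes. Along the mRNA the exonic folds went from 0.08 in the first part of 3 equal parts to −0.10 in the middle and −0.28 in the last. Over all genes these medians were 0.12, −0.09 and 0.04. In the last part the members' median ran from −0.57 to 0.66 over the libraries. The parts held 38.8%, 37.6% and 23.7% of the members' exonic clusters, against 45.6%, 31.4% and 23.0% over all genes. Members had many clusters near the level of input on the mRNA and fewer, with folds above input, in introns. Folds over all genes were also higher in introns, with a median of 1.46, against 0.13 in exons.

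Intronic folds of single clusters are coarse values. In each library the 5 commonest fold values accounted for 41.4% to 86.7% of the members' intronic clusters, and the reads behind a cluster are not in the files. A p-value as well as a fold was therefore required. A −log10 p of 3 or more was reached by 81 of the members' 4471 clusters (1.81%), against 5.88% over all protein-coding genes. With a log2 fold of 3 or more as well, which is called enriched below, 41 remained (0.917%, against 2.56%). None of the 41 was in coding sequence or in a 3′ UTR, where the members had 2188 and 387 clusters. Over all protein-coding genes 0.152% of coding clusters and 0.177% of 3′ UTR clusters were enriched, so the members' 0 is near that share. By library the enriched members' clusters numbered 0 and 8 in control lower band replicates 1 and 2, 1 and 8 in control upper band, 2 and 6 in glucagon lower band, and 3 and 13 in glucagon upper band. Replicate 2 libraries held 35 of the 41 (85.4%), 62.0% of all member clusters and 63.1% of the enriched clusters of all protein-coding genes.

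**Figure D2:**
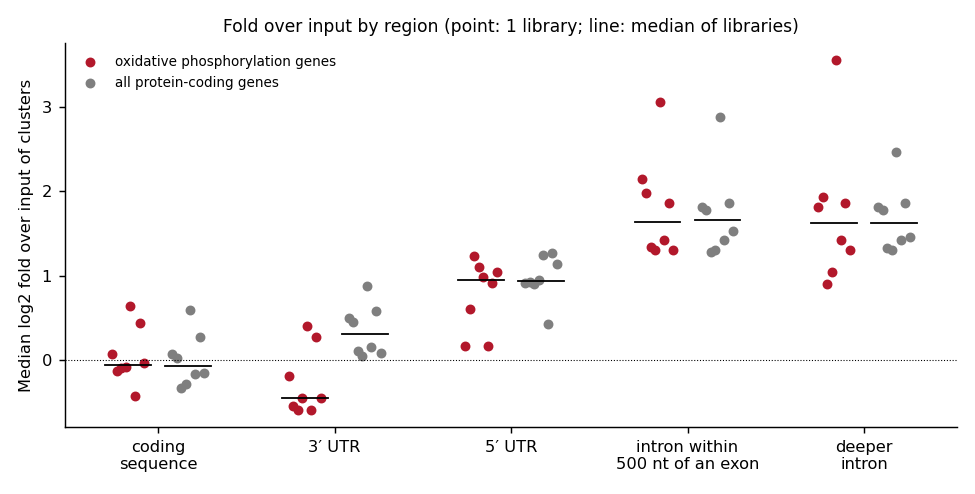
Median log2 fold over input of clusters by gene region, 1 point per library, for oxidative phosphorylation genes (red) and all protein-coding genes (grey); black lines are the medians of the libraries. Coding sequence lies around 0 and introns between 0.91 and 3.55 for the members, and in the 3′ UTR the members lie below all genes.

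Enriched clusters were found in 14 of the 83 members (16.9%). Among all protein-coding genes with a cluster 26.2% had at least 1, so the members' share is not above the background. The authors' reproducible lists, 1 per group, named 2 of the 83, Atp5a1 and Atp5c1 (2.41%), against 10.7% of all genes with a cluster. Clusters of the 14 genes within 100 nt of each other were joined into 19 sites, of which 14 were enriched in 1 library only and 5 in more. Introns of the principal transcript held 18 of the 19 sites, intron 1 held 15, and 11 sites lay within 1000 nt of the gene start.

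Sequences are shown for those enriched sites that lie inside an annotated transcript, because the letters there can be read from the GENCODE M21 transcripts of mm10. The Atp5a1 site is not shown and was not searched for the motif below, although some transcripts count part of it as 5′ UTR. For contrast, the lowest-fold short coding cluster in control upper band replicate 2 was read for Atp5b, Sdha, Uqcrc1, Ndufs1 and Cox4i1. The 2 with the lowest folds, of Atp5b and Ndufs1, are set beside the others. Each line is in the sense of the RNA, in DNA letters, 5′ to 3′. Capitals mark runs of 3 or more G (motif GGG, searched on the RNA strand only). For sites that some transcript counts as 5′ UTR only the middle 30 bases are given.
Atp5c1 site 1, chr2:10079936-10079965, minus strand, intron 1, log2 fold 4.43 in control upper band replicate 2: gaaacactgcacGGGGGagcagcgtgaccc
Atp5c1 site 2, chr2:10080179-10080208, minus strand, intron 1, log2 fold 3.63 in glucagon upper band replicate 2: gacccctggtaGGGGtcaaagagaacaagg
Cyc1 site 1, chr15:76343799-76343828, plus strand, intron 1, log2 fold 3.88 in glucagon lower band replicate 1: aactcgacGGGGtccccgccgccGGGccgg
Cyc1 site 2, chr15:76344213-76344253, plus strand, intron 1, log2 fold 4.01 in glucagon lower band replicate 2: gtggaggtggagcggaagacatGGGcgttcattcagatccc
Uqcrc1 site, chr9:108936942-108936995, plus strand, intron 1, log2 fold 3.93 in control lower band replicate 2: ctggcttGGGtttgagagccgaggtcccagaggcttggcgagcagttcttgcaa
Cox6c site, chr15:35937445-35937474, minus strand, log2 fold 3.97 in control upper band replicate 2: gccttgttgcGGGtagtggaaatgcgtagg
Cox7c site, chr13:86046347-86046376, minus strand, intron 1, log2 fold 3.18 in glucagon upper band replicate 2: ttgaaggtcattggaaacaaaagaagaGGG
Atp5b, coding sequence, chr10:128086300-128086337, plus strand, log2 fold −1.83 in control upper band replicate 2: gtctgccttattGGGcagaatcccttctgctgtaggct
Ndufs1, coding sequence, chr1:63163826-63163847, minus strand, log2 fold −1.27 in control upper band replicate 2: caagtgagattgcaggagtaga
All enriched sequences shown hold a GGG, as do 48.3% of the 1608 distinct coding clusters of members and 29.9% of 30-base windows of the members' mRNAs. Their G and C content ran from 40.0% in Cox7c to 83.3% in Cyc1 site 1, and the coding clusters shown had 52.6% (Atp5b) and 45.5% (Ndufs1). Among the lowest-fold coding clusters, those of Atp5b, Sdha and Cox4i1 hold a GGG and those of Ndufs1 and Uqcrc1 do not. The shown sites are too few and were chosen by annotation, so the match is a description.

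Complex V held 24.5% of member clusters, 19 of the 41 enriched clusters and all 5 reproducible peaks. Atp5a1 encodes the α subunit of the catalytic head and had 150 clusters, 15 to 22 in each library, of which 104 were coding. Its exonic median log2 fold was −0.21. In intron 1, at chr18:77774268-77774687 with its middle 368 nt after the first 5′ splice site, it had the strongest site of the group. The highest log2 fold there was 3.14 and 4.37 in control lower band replicates 1 and 2, 4.28 and 5.01 in control upper band, 3.27 and 3.57 in glucagon lower band, and 3.25 and 3.67 in glucagon upper band. It is the only one of the 19 sites with a cluster in all 8 libraries. It was enriched in 7 libraries, while control lower band replicate 1 reached a −log10 p of 2.94, just under the threshold. Over both bands the control and glucagon libraries overlapped. In the upper band both control values lay above both glucagon values, but these are maxima over a site with several clusters. The 5.01 came from a separate cluster at chr18:77774594-77774687. Closer to the gene start, control upper band had 4.28 and 3.21 in replicates 1 and 2. Glucagon upper band had 3.25 and 3.67 there, so the treatments overlapped. Group means of the highest folds were 4.65 ± 0.52 and 3.46 ± 0.29 for control and glucagon upper band. For lower band they were 3.75 ± 0.87 and 3.42 ± 0.21 (SD, n = 2), and the authors' folds were not tested. In the authors' reproducible lists it had 2 peaks in control upper band, with log2 folds of 3.94 and 3.79, 1 in glucagon lower band (3.68) and 1 in glucagon upper band (3.50). The list of control lower band did not hold it. Some transcripts count part of this site as 5′ UTR.

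Atp5c1, the γ subunit that turns inside the catalytic head, had 215 clusters, the second largest number of any member. Its site 1 had no cluster in control lower band replicate 1 or glucagon lower band replicate 1. Elsewhere the highest log2 fold there was 2.78 in control lower band replicate 2, 2.61 and 4.43 in control upper band replicates 1 and 2, 2.54 in glucagon lower band replicate 2, and 3.34 and 2.95 in glucagon upper band. Only control upper band replicate 2 and glucagon upper band replicate 1 were enriched. The reproducible list of glucagon upper band gave it a log2 fold of 3.09. Site 2, closer to the gene start, had log2 folds of 1.86 to 3.63 in 7 libraries and was enriched in glucagon upper band replicate 2 only. Atp5b, the β subunit, had 131 clusters, all exonic, with a median log2 fold of −0.38 and no enriched cluster. Like Atp5a1 it builds the catalytic head. Another 21 clusters in its introns lay on small noncoding RNA genes (Snord59a among them) and were given to these. Their median log2 fold was −2.65 and none was enriched.

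Atp5l, subunit g of the membrane part, had 31 clusters, all in introns within 500 nt of an exon. Its site at chr9:44920257-44920601, with the middle 181 nt after the first 5′ splice site, reached log2 folds of 3.40 and 3.93 in control lower band replicates 1 and 2, 2.33 and 4.05 in control upper band, 2.21 in glucagon lower band replicate 2, and 1.86 and 3.46 in glucagon upper band. It was enriched in all replicate 2 libraries except glucagon lower band. Atp5g1, which encodes the proton-carrying subunit c, had 1 enriched cluster, with a log2 fold of 3.05 in glucagon upper band replicate 2. Its site lay in intron 2, and is among the 3 sites of the group in a later intron.

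Complex I, the largest complex, held 42.1% of member clusters and 10 enriched clusters in 3 genes. Ndufab1, the mitochondrial acyl carrier protein that is also a subunit of complex I, had 8 of them. Its site at chr7:122096931-122097395 lay in intron 1, with its middle 4492 nt after the 5′ and 432 nt before the 3′ splice site, away from the gene start. The highest log2 fold was 3.14 and 3.03 in control lower band replicates 1 and 2, 2.82 and 3.73 in control upper band, 3.37 in glucagon lower band replicate 2, and 2.86 and 3.53 in glucagon upper band. All 4 replicate 2 libraries were enriched there and no replicate 1 library was, though control lower band replicate 1 reached a −log10 p of 2.94, just under the threshold. Ndufa11 (log2 fold 4.31) and Ndufa12 (3.18), accessory subunits, had 1 enriched cluster each, both in glucagon upper band replicate 2. Ndufs4, an accessory subunit known from Leigh syndrome, had most clusters of any member, 260, of which 219 were intronic and none was enriched. Its gene is also the longest of the members, at 100464 nt against a median of 7674 nt. Ndufs1, the largest subunit of the electron input module, had 143 clusters, with exonic and intronic medians of 0.56 and 1.31 and no enriched cluster.

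Complex II, the succinate dehydrogenase, had 372 clusters in 4 genes. Sdha, its flavoprotein, had 167, of which 115 were coding, and none was enriched. Sdhb, its iron-sulfur subunit, had 110 clusters and 2 enriched ones in intron 1, both in glucagon upper band replicate 2 with log2 folds of 3.37 and 4.05. At the first of these sites glucagon lower band replicate 1 had a log2 fold of 4.47 with a −log10 p of 2.62. Sdhc and Sdhd, the membrane anchors, had 55 and 40 clusters and no enriched one. The assembly factors had 105 clusters, 85.7% of them intronic, and none was enriched.

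Complex III had 470 clusters, of which 22.6% were intronic, the lowest share of any complex, and 5 were enriched. Cyc1, cytochrome c1, had 3 of these at 3 places, 2 in intron 1 and 1 in intron 3. They came from glucagon lower band only, with log2 folds of 3.88 in replicate 1 and 4.01 and 3.75 in replicate 2, and each was enriched in 1 library. At site 1 the other libraries with a cluster had 1.08 to 2.01, in both treatments. Site 2 had 1.80 in control upper band replicate 2 and 1.38 and 2.12 in glucagon upper band. Their −log10 p values, 4.60 to 10.3, were higher than the 3.96 of the enriched cluster there. Site 3 had 2.08 and 1.90 in control upper band replicates 1 and 2. The core subunits Uqcrc1 and Uqcrc2 had 114 clusters each and 1 enriched cluster each in intron 1, at 3.93 in control lower band replicate 2 and 3.27 in glucagon upper band replicate 1. Their exonic medians were −0.41 and −0.43. Uqcr10, a small subunit, had fewest clusters, 21.

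Complex IV had 547 clusters and 5 enriched ones. Cox4i1 and Cox6b1 had most clusters, 96 and 76, and no enriched one. Cox7c, a small membrane subunit, had 26 clusters, 20 of them in a 5′ UTR, and an exonic median log2 fold of 2.47, the highest of the members. Its site was enriched in control lower band replicate 2, at 4.07, and glucagon upper band replicate 2, at 3.18, and lay between 2.23 and 2.83 in the other 5 libraries with a cluster. The site is intron 1 of the principal transcript. With 1 coding cluster, the exonic median of Cox7c rests on clusters that some transcript counts as 5′ UTR. Cox7a2l had 2 sites in intron 1, at 3.86 in control lower band replicate 2 and 3.75 in glucagon lower band replicate 2. Cox6c had 1 site, in exon 1 of the principal transcript, at 3.97 in control upper band replicate 2. Fewest clusters were on Cox5b, 25.

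**Figure D3:**
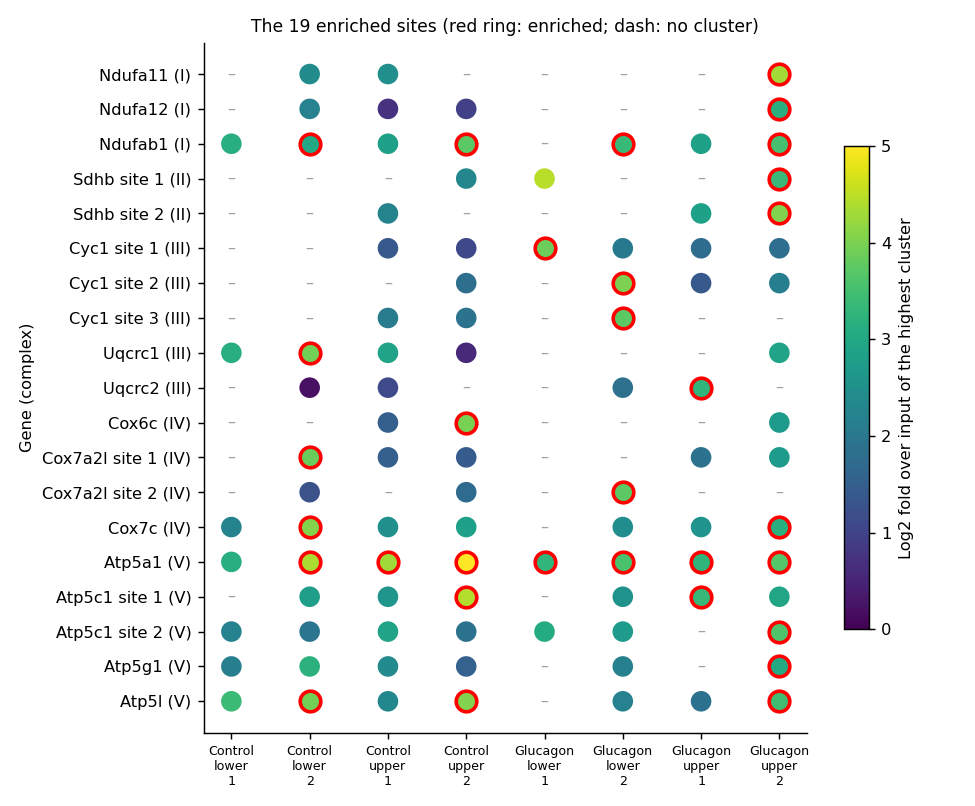
Highest log2 fold over input (colour) at each of the 19 enriched sites in each of the 8 libraries, by gene and complex; red rings mark values of 3 or more both in log2 fold and in −log10 p, and a dash marks no cluster. The Atp5a1 row is ringed in 7 libraries and Ndufab1 in 4, and 14 rows are ringed once.

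Enriched clusters of the members lay mostly in the first intron. Of the 41, intron 1 held 37 (90.2%), and 22 of those lay within 500 nt of the first 5′ splice site. Within 1000 nt of the gene start were 26 (63.4%), against 20.9% of all member clusters. Among enriched clusters of all protein-coding genes 61.8% were in intron 1 and 20.7% within 1000 nt of the start, in genes of greater length. Repeated calls of 1 site enter these numbers, since Atp5a1 gave 12 clusters and Ndufab1 gave 8. By distance, 0.297% of member clusters were enriched in the first 199 nt, 2.29% from 200 to 499 nt, 6.88% from 500 to 999 nt and 0.485% from 1000 to 1999 nt. For all genes these shares were 1.24%, 6.97%, 11.9% and 8.62%. From 2000 to 4999 nt the members had 1.20%, with 12 enriched clusters, 8 of them from Ndufab1. In both sets the highest share lay from 500 to 999 nt, and the members' share was lower in each of the bins named. All 12 enriched clusters of Atp5a1 were among the members' 17 from 500 to 999 nt, so that highest share rests largely on 1 site. In intron 1 the enriched share was 4.21% for the members and 5.57% for all, and in later introns 0.346% and 1.82%.

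**Figure D4:**
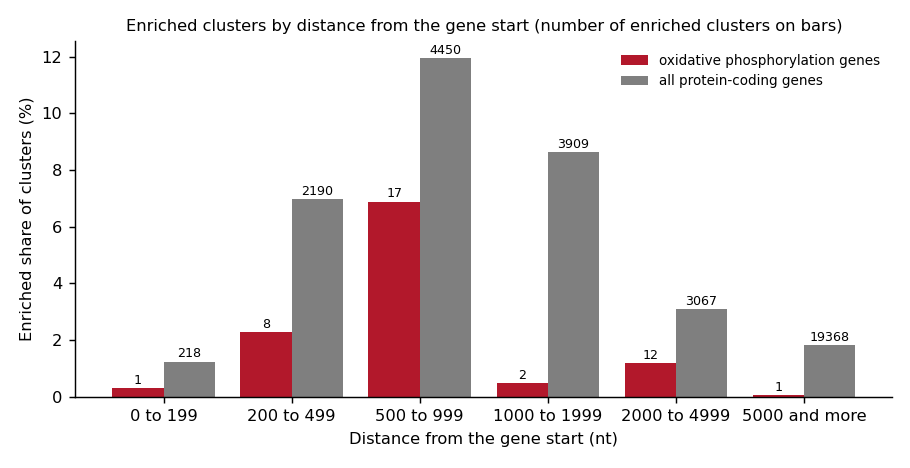
Share of clusters that were enriched, pooled over 8 libraries, by distance of the cluster from the gene start, for oxidative phosphorylation genes (red) and all protein-coding genes (grey); numbers on bars are enriched clusters. The red bars peak at 6.88% from 500 to 999 nt (17 clusters, 12 of them from 1 site of Atp5a1), and each is lower than the grey bar beside it.

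Several members had almost no coding clusters. Of the 83, 11 had at most 2 coding clusters. In 6 of these (Atp5g1, Atp5g2, Atp5l, Cox7c, Ndufab1 and Ndufb4) every 30-base stretch of the coding sequence also occurred in a transcript of another gene at another place. Of the genes that shared a stretch of the mRNA, pseudogenes were 6 of 6 for Atp5g2, 19 of 20 for Atp5l, 6 of 6 for Cox7c and 4 of 4 for Ndufb4, but 4 of 14 for Ndufab1 and 61 of 3197 for Atp5g1, where the stretches outside the coding sequence count too. No other member reached 100%. The next was Uqcrb with 90.5% and 17 coding clusters, and the median of the 72 members with 3 or more coding clusters was 2.32%. How reads with several matches were placed is not given in the sources used here, so the low coding counts of these 6 genes are uncertain and the part of shared sequence was not tested. Of the 14 members with an enriched cluster, Atp5g1, Atp5l, Cox7c and Ndufab1 are among the 6. The intronic sites do not enter this count of coding stretches. The other 5 were Ndufa11 with 27.5% shared, and Atp5s, Sdhaf1, Sdhaf3 and Sdhaf4 with 0%.

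Glucagon against control was tested on the number of clusters per gene and library, scaled to 100000 clusters of the library, on the log2(value + 1) scale with limma. The amount of each RNA in the cells was not assessed here, and a cluster count also moves with depth. Of the 83 members 75 reached a mean of 2 clusters per library and were tested. None passed an adjusted p of 0.05 (limma, Benjamini-Hochberg over 7980 genes), and 0 had an unadjusted p under 0.05, also with array weights. Over all genes tested, 0.627% were called higher and 0.965% lower. The smallest adjusted p of a member was 0.438, for Cox6a1. Counts were also simulated from the gene means and library totals, with a set spread not estimated from these data and no shared deviation of replicates. There the test recovered 39% of 4-fold and 1% of 2-fold changes placed in some of the 7980 genes. Changes of 2-fold would mostly be missed at that spread, and recovery at the real spread was not measured.

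Cox6a1, the liver form of a subunit at the edge of complex IV, had per 100000 clusters 3.77 and 3.36 in control lower band replicates 1 and 2, 2.08 and 1.92 in control upper band, 19.0 and 4.79 in glucagon lower band, and 5.12 and 3.85 in glucagon upper band. Each glucagon library lay above every control library, and the value of 19.0 rests on 5 clusters in the smallest library. Its log2 change was 1.05 (SE 0.49). For Atp5a1 the values were 15.1 and 11.2, 8.33 and 5.75, 57.1 and 11.7, and 18.4 and 9.63 in the same order, with overlap between treatments and a log2 change of 0.91 (SE 0.50, limma adjusted p 0.487). For Atp5b they were 12.1 and 10.1, 5.83 and 6.52, 38.1 and 12.8, and 17.4 and 7.22, again with overlap and a log2 change of 0.86 (SE 0.44, limma adjusted p 0.464). Cox5b, a zinc-binding subunit of complex IV, ran the other way, with 3.02 and 3.36, 2.50 and 1.15, 0 and 1.60, and 1.02 and 0.963, and a log2 change of −0.92 (SE 0.45, limma adjusted p 0.454). Without glucagon lower band replicate 1 all these log2 changes were smaller, at 0.60 for Cox6a1, 0.36 for Atp5a1, 0.49 for Atp5b and −0.58 for Cox5b.

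Of the 75 tested members 50 had a log2 change above 0, with a median of 0.33 beside −0.30 over all 7980 genes. By complex, values above 0 numbered 20 of 34 in complex I (median 0.10), 4 of 4 in complex II (0.39), 4 of 9 in complex III (−0.04), 10 of 11 in complex IV (0.62) and 12 of 15 in complex V (0.42). The sign depends on the scaling. Scaled to the clusters in exons of protein-coding genes, the median of the members was −0.03 beside −0.81 over all genes, and 35 of 75 were above 0. The medians were then −0.31, −0.04, −0.50, 0.24 and 0.04 for complexes I to V. Relative to all genes the members' median lay 0.63 higher in the first scaling and 0.78 in the second. This distance depends on the smallest library. Without glucagon lower band replicate 1 it was 0.22 (0.23 beside 0.01 over all genes), and without replicate 2 of that group it was 1.00 (0.33 beside −0.67).

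**Figure D5:**
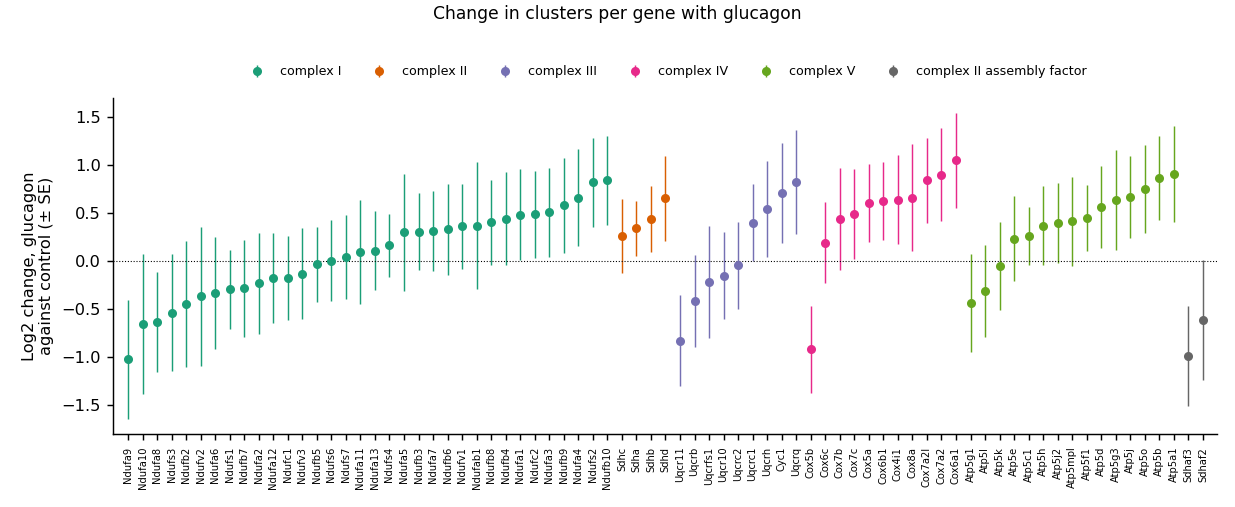
Log2 change in clusters per gene with glucagon against control, with its SE, for the 75 members tested, ordered by complex and by size; 4 groups of 2 libraries entered the fit. Points run from −1.02 to 1.05, and no gene passed the adjusted threshold.

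Between upper and lower band no member passed the threshold, and no gene did (0 of 7980 in each direction, 0%, limma), with 0 members and 144 genes at an unadjusted p under 0.05. The members' median log2 difference, upper minus lower, was −0.14 beside 0.25 over all genes, and 0.38 beside 0.85 when scaled to exonic clusters. All 11 complex IV members were below 0 in the first scaling, and 6 of 11 in the second. For the difference of the glucagon effect between bands 0 of 7980 genes passed (0%), with 34 at an unadjusted p under 0.05. Among the members Atp5k alone had such a p, of 0.04, with a limma adjusted p of 1.00. These counts depend on glucagon lower band replicate 2. Without it, the group holds only the smallest library, assumed to vary like the other groups, and 27 members were then called for treatment (18 higher, 9 lower), 24 for band and 7 for the difference, beside 4091, 3150 and 1623 of 7959 genes.

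Other genes of the pathway gave the following counts. None of the 13 mitochondrially encoded subunits had a cluster, and the lists hold no row for the mitochondrial chromosome, so they could not be assessed. Of 44 assembly factors and electron carriers 43 had clusters, 8 had 1 enriched cluster each (18.6% of the 43, beside 26.2% of all genes with a cluster) and 0 had a reproducible peak. Cytochrome c itself (Cycs) had 11 clusters and none enriched. Of 18 genes of the tricarboxylic acid cycle and pyruvate dehydrogenase all had clusters, 6 had enriched ones (33.3%), and Ogdh and Suclg1 were among those with a reproducible peak. Among the 18, 1 was called higher with glucagon (limma) and 0 lower. Of 21 regulators of respiratory genes 20 had clusters, and 8 of these (40.0%) had 64 enriched ones. That is 3.28% of their clusters, beside 2.56% over all protein-coding genes and 0.917% for the members. A reproducible peak was listed for 4 of the 20, beside 10.7% of all genes with a cluster, and none of these shares was tested. The genes of ERRα and NRF1 were among the 4 with a reproducible peak. Esrra, which encodes ERRα, had 18 enriched clusters and 5 reproducible peaks, Nrf1 had 9 and 1, and Gabpb1 had 9 and 4, while Pprc1, a relative of PGC-1α, had 17 and 4. The 18 of Esrra were among 90 clusters and the 9 of Nrf1 among 317. None of the other regulators had a reproducible peak. Enriched clusters numbered 5 for Lrpprc, 3 for Ppargc1b, 2 for Yy1, 1 for Gabpb2 and 0 for the rest, such as Gabpa. Ppargc1a, the gene of PGC-1α, had 134 clusters and none enriched. They numbered 0 and 0 in control lower band replicates 1 and 2 and 1 and 1 in control upper band. Glucagon lower band had 0 and 56, with the 0 in the smallest library, and glucagon upper band had 17 and 59. For assembly factors and for regulators 0 of 28 and 0 of 17 tested genes were called in either direction.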

How the data were processed

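Cutadapt, STAR and the build mm10 are named in the submitters' processing notes, without versions. Which program called peaks is not given in the sources used here. For each of 8 libraries the deposited list gives every cluster a −log10 p-value and a log2 fold over input, as read from the values. The reproducible lists, 1 per group, are pooled per group. Groups came from the source names.

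Clusters were placed by midpoint and strand in GENCODE M21 (bedtools 2.31.1). Coding sequence came before 3′ UTR, then 5′ UTR, noncoding exons, introns up to 500 nt from an exon, and the rest of introns. The principal transcript was the APPRIS principal with the longest coding sequence. Folds are the authors' and served only to describe, rank and filter. Cluster counts per gene were computed here and tested with limma 3.58.1 (R 4.3.3, 4 group means, trend, pseudocount 1 per 100000, mean of at least 2 clusters), checked on simulated data. Replicates with the same number deviated together (correlations 0.136 to 0.484 over 7980 genes, from the data and not the labels), so a fit with the replicate number as a block was added. Python 3.11.15, numpy 2.4.6 and pandas 2.3.3 were used.

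Named genes were members with a reproducible or enriched peak, per complex those with most and fewest clusters, and those called. Cox6a1, Atp5b, Cox5b, Atp5k and Cycs in the tests, the isoforms without a cluster, the 6 members with shared coding sequence and the regulators were named after their values were seen. Not every gene of the pathway lists is reported here. Members and lists were chosen with earlier results of these data known. Alternatives covered thresholds, region order, scaling, pseudocount, filter, array weights and each library left out. Depth is unknown, so no interval on reads could be formed.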

Additional observations from a re-analysis of the deposited data

How the results depend on the processing

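Without glucagon lower band replicate 2, its group holds only the smallest library, assumed to vary like the other groups. Leaving out each library in turn gave 0 to 27 members for glucagon against control, 0 to 24 for upper against lower band and 0 to 7 for the difference between bands, with every nonzero count from leaving out that library, and the cause was not tested. The replicate block kept 0 members in all 3 contrasts, with a smallest adjusted p (limma) of 0.256 for treatment, while the genes called for treatment went from 127 to 227, and to 368 of 8186 without glucagon lower band replicate 1. It changed no other call. Single members passed only without glucagon lower band replicate 2: the treatment change was then 1.45 for Atp5a1, 1.50 for Cox6a1, 1.24 for Atp5b and −1.26 for Cox5b, and the band difference −1.42 for Atp5a1 and 0.76 for Ndufs4. Without glucagon lower band replicate 1 the band difference of Atp5a1 was −0.32, from −0.87, and that of Ndufs4 0.36, from 0.56. The members' median change switched sign when scaled to exonic clusters, from 0.33 to −0.03 for treatment and from −0.14 to 0.38 for band, and the treatment median of complex III went from −0.04 to 0.23 without glucagon lower band replicate 1.

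The number of members with an enriched cluster was 7 at a log2 fold of at least 4, 7 at a −log10 p of at least 5 (stricter thresholds by construction), 16 at a log2 fold of at least 2, and 10 to 14 with a library left out. The intronic share was 46.2% when introns of any transcript were placed before exons, and 30.1% to 35.7% with a library left out. The coding share was 42.2% under that order and 49.2% to 53.9% with a library left out. The log2 changes of Atp5a1, Cox6a1, Cox5b, Ndufs4 and Atp5b named here changed sign under none of these alternatives. Unknown read depth limits all folds.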
